A study of Mus musculus with 6 samples.

Results

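The HOX genes are the 4 clusters of homeodomain transcription factors, HOXA, HOXB, HOXC and HOXD. They were measured on 6 Agilent 1-colour microarrays in NIH3T3, an established mouse cell line of embryonic fibroblast origin. The genes were chosen by symbol, as all protein-coding genes named Hoxa, Hoxb, Hoxc or Hoxd, and the set analysed here has 38 of the 44917 genes or unnamed transcripts on the array. No measured value decided which genes belong. The family was nevertheless proposed with results of the same comparison known, so its differences are given below as a description and not as independent evidence. Both groups carried the retroviral vector pCX4bsr and grew in medium with 2% serum. In the 3 control arrays the vector was empty, and in the 3 GGCT arrays it expressed gamma-glutamylcyclotransferase, an enzyme of glutathione breakdown. The sample titles number the experiments 1 to 3, and the design text calls them independent. The labels describe 1 establishment of the stable cells, do not say whether they are a pool or a clone, and do not name the species of the GGCT sequence. The p-values therefore measure the spread between these experiments.

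HOX proteins bind DNA through a homeodomain and set position along the body axis. Within a cluster all HOX genes are read in the same direction, and their number runs from the 3′ end (paralogue 1) to the 5′ end (paralogue 13). In the embryo the low-numbered genes are switched on earlier and further forward than the high-numbered ones, an order called collinearity. Fibroblasts in culture keep a HOX pattern that reflects the body site they came from. Polycomb proteins hold silent HOX genes in a repressed state, Trithorax proteins keep active ones on, and retinoic acid acts on many of the 3′ genes.

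The HOXD promoters are shown because HOXD was the cluster in which each tested gene was called, and Hoxd10 because it is the nearest 5′ neighbour of those genes and was above background on no array. Each line gives the 250 bases before the annotated start, 5′ to 3′ on the plus strand, from RefSeq (GRCm38.p6). The positions are chr2:74711743-74711992 for Hoxd3, chr2:74721728-74721977 for Hoxd4, chr2:74704365-74704614 for Hoxd8, chr2:74697513-74697762 for Hoxd9 and chr2:74691641-74691890 for Hoxd10. Capitals mark AGGTCA or its reverse complement TGACCT, the core hexamer that retinoic acid receptors and other nuclear receptors recognise.
Hoxd3: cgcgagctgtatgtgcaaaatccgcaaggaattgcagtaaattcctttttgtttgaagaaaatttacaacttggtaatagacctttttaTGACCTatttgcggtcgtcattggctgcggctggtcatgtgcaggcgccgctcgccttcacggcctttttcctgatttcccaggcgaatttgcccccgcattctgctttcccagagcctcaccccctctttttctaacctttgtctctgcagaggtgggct
Hoxd4: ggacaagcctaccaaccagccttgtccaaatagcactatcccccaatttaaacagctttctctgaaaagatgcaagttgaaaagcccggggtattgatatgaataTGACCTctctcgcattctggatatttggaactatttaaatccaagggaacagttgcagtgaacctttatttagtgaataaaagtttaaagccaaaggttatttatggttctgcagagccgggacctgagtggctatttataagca
Hoxd8: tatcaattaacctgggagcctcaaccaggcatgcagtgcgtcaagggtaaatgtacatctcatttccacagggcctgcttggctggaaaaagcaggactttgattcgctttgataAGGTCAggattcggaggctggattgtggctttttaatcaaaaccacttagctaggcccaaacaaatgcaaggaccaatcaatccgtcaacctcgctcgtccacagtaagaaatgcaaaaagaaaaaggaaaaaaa
Hoxd9: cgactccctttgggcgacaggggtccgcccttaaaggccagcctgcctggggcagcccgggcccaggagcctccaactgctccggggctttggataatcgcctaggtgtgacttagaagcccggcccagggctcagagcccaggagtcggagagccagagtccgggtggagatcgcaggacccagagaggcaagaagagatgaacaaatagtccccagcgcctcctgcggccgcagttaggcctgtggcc
Hoxd10: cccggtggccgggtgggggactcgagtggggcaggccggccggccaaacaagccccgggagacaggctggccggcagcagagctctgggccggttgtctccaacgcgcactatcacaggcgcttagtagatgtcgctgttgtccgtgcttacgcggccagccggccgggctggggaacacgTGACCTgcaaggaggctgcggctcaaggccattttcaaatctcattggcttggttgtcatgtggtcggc
The hexamer lies in the windows of Hoxd3, Hoxd4, Hoxd8 and Hoxd10, and these letters were not found in that of Hoxd9.

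The promoter table held 24 promoters of 22 of the 38 genes, each reaching from 250 bases before to 50 bases after the start. AGGTCA, on either strand, was found in 7 of these 24 promoters, against 16.3% of all 32851 promoters of the same length. The other promoters with it were those of Hoxa5, Hoxb4 and Hoxc4. The 8-letter word TGATNNAT, the kind of site bound by HOX proteins together with PBX, was found in 4 of 24 against 8.85% of all. CCAAT was found in 15 of 24 against 37.4%, and TAAT, the homeodomain core that can also lie next to a TGATNNAT match, in 19 of 24 against 58.0%. The median ratio of observed to expected CpG was 0.626 in the HOX promoters and 0.384 in all promoters. These words were chosen after the promoter letters had been seen, and a match is a description and not a binding site.

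Across the whole array 23851 genes or unnamed transcripts were tested, 17.5% of them were called higher in the GGCT arrays and 17.3% lower. A gene was called at a Benjamini-Hochberg adjusted p under 0.05 from limma, a linear model with a moderated variance fitted to all tested genes. No spot was saturated, and an array had 54.6 to 61.7% of its probes well above background. Replicate 1 of both groups lay on slide 1 and replicates 2 and 3 on slide 2. Control arrays always lay in slide column 2 and GGCT arrays always in column 4, so the column and the group cannot be told apart. The mouse Ggct probe differed by 0.62 ± 0.12 (log2, SE), a 1.53-fold rise with an adjusted p of 0.0111 (limma), and whether it reads the introduced sequence was not tested. All 10 fibroblast markers were well above background on all 6 arrays, and 5 of them fell (Col1a1, Col1a2, Col3a1, Pdgfrb and Lox) while Pdgfra rose; the replicate block added Fn1 and S100a4 to those that fell, at adjusted p-values of 0.0129 and 0.0113 (limma). Their summed level, in units of each array's 75th percentile, was 2086 to 2537 in control and 1575 to 1975 in GGCT arrays. Epithelial markers summed to 0.184 to 0.210 in control and 0.254 to 0.364 in GGCT arrays, with Epcam and Cdh1 above background on no array. Krt8 rose by 1.18 ± 0.24 (adjusted p = 0.0125, limma), and Krt5 differed by -0.66 (adjusted p = 0.0728 without and 0.0349 with the block, limma). Endothelial markers summed to 0.136 to 0.174 and 0.235 to 0.277, with Kdr and Tek above background on no array. The other members rose, Cdh5 from 0 control to 3 GGCT arrays above background and at least 2.18-fold (adjusted p = 0.000300, limma), and Pecam1 by 0.43 ± 0.13 (adjusted p = 0.0480, limma). The bound for Cdh5 holds for the processed signal. After another background correction, described below, the log2 differences were 0.44 for Cdh5, 0.18 for Pecam1 and 0.60 for Krt8. Blood markers summed to 1.80 to 2.00 and 1.58 to 1.72, with Ptprc and Adgre1 above background on no array and Cd68 lower by 0.27 on the log2 scale (adjusted p = 0.0451, limma). Cd3e was well above background on all 6 arrays. Its mean log2 signal relative to the 75th percentile was 0.07 in control and -0.09 in GGCT arrays (adjusted p = 0.336, limma). Pericyte and muscle markers summed to 0.120 to 0.143 and 0.0508 to 0.135. The part of these shifts in the HOX differences was not tested, and in bulk RNA fewer cells of a type and less RNA per cell cannot be told apart.

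The NIH3T3 cells expressed the middle of the HOX clusters. Of the 38 genes, 20 were well above background on all 6 arrays, 3 on some arrays and 15 on none. Among the 22 genes of paralogues 3 to 9, 19 were above background on all 6 arrays, Hoxb9 on 4, and Hoxb7 and Hoxb8 on none. Among the 12 genes of paralogues 10 to 13, none was above background on all arrays and 10 were on none. At the 3′ end Hoxa2 was the 1 gene of 4 that was detected, and Hoxb1, Hoxb2 and Hoxd1 were above background on no array. By cluster, 7 of 10 HOXA genes, 4 of 10 HOXB genes, 5 of 9 HOXC genes and 4 of 9 HOXD genes were above background on all 6 arrays. These counts use any probe of a gene, and 7 genes had more than 1 probe among the 45 probes of the family.

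Below, a level is the log2 signal of a gene's brightest probe minus the 75th percentile of its array, so that 0 is the signal of that percentile. A difference is the mean of the 3 GGCT levels minus the mean of the 3 control levels, with its standard error (SE). The 16 probes of the 15 undetected genes had levels between -7.44 and -5.05, where the dimmest probe well above background on an array was at -5.18 to -4.59. Hoxa10 and Hoxc10, both of which pattern the lower trunk and limb, were above background on 1 array each, and both of those arrays were on slide 1. Hoxa10 read -4.79, -7.05 and -6.72 in control and -6.81, -7.13 and -6.76 in GGCT arrays, with control array 1 the detected one. Hoxc10 read -5.52, -6.50 and -6.13 in control and -4.29, -7.28 and -6.91 in GGCT arrays, with GGCT array 1 the detected one. In both genes the groups overlap, and neither was tested.

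**Figure D1:**
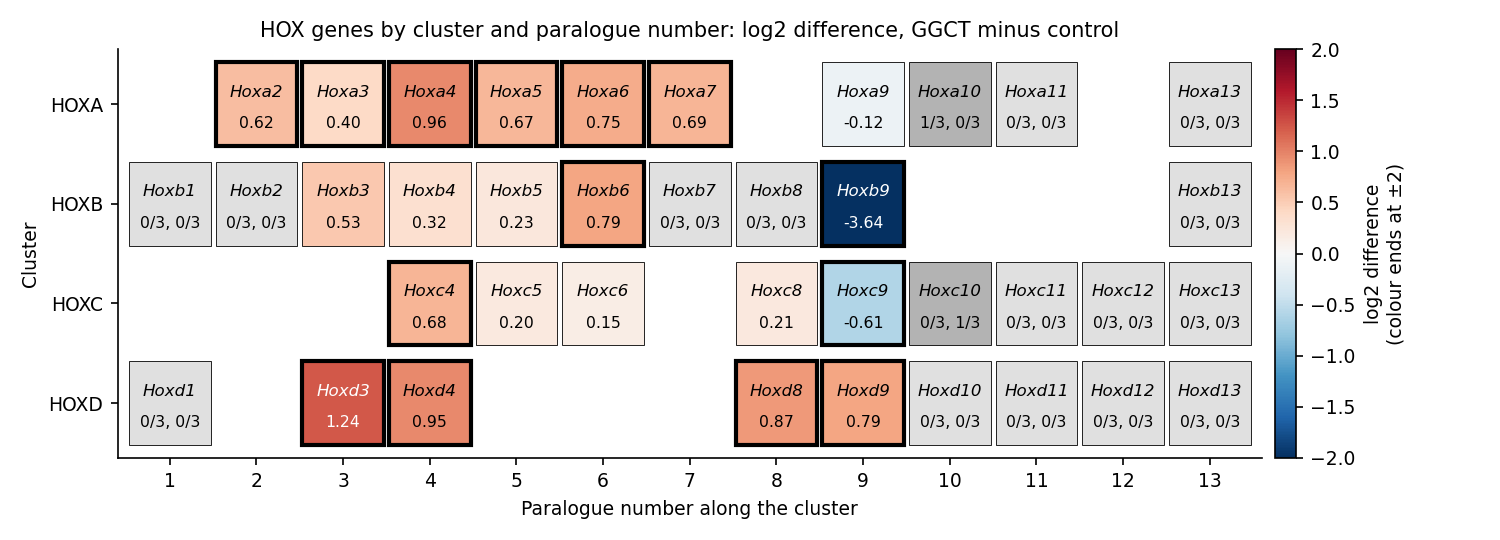
The 38 HOX genes by cluster (rows) and paralogue number (columns). Coloured boxes give the log2 difference, GGCT minus control, of the 21 tested genes, with a thick frame where the call was past the threshold, and grey boxes give the number of control and of GGCT arrays out of 3 on which an untested gene was well above background. Positions without a box have no gene analysed here. Tested genes fill paralogues 2 to 9 only, and of those with a negative difference, all lie at paralogue 9.

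Of the 21 genes tested, 12 rose and 2 fell in the GGCT arrays, and 7 were not called. The background for these counts is the 17.5% of all tested genes that were called higher and the 17.3% that were called lower. In the fit that blocks on the replicate number, 15 genes rose and 2 fell, beside 27.3% higher and 26% lower over all tested genes. The median difference was 0.62 over the 21 genes and 0.015 over all genes tested, and 18 of the 21 differences were positive. Within slide 1 the median of the 21 was 0.60 and within slide 2 it was 0.67. In 15 of the 21 genes the control and GGCT levels did not overlap, beside 49.4% of all tested genes. Leaving out 1 array kept 9 to 12 genes called higher. Leaving out replicate 2 of both groups left 4 called higher, and leaving out replicate 3 of both groups left 1 higher and 1 lower. Each of these replicate fits compares 2 arrays against 2. The share of all genes called in the leave-out fits is not given here, so whether HOX genes lost calls more than others was not tested.

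HOXD rose along its whole detected stretch. All 4 of its tested genes, Hoxd3, Hoxd4, Hoxd8 and Hoxd9, were called higher, with differences from 0.79 to 1.24 and a median of 0.91. Hoxd3, which acts in the formation of the first neck vertebra, read -2.25, -2.41 and -2.35 in control arrays and -0.82, -1.38 and -1.08 in GGCT arrays. Every GGCT level was above every control level, by more than the spread within either group. The difference of 1.24 ± 0.15 (SE, n = 3 per group) is 2.37-fold, with an adjusted p of 0.00211 (limma).

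Hoxd4, a neighbour of Hoxd3 that also patterns the neck vertebrae and responds to retinoic acid, read 0.66, 0.55 and 0.33 in control and 1.86, 1.27 and 1.27 in GGCT arrays. The groups did not overlap, and GGCT array 1 stood above the other two. The difference was 0.95 ± 0.19 (adjusted p = 0.0117, limma). Hoxd8, a gene of the trunk, read 3.06, 2.63 and 2.66 in control and 3.86, 3.57 and 3.52 in GGCT arrays. In both groups the slide 1 array was the highest, and the difference of 0.87 ± 0.16 (adjusted p = 0.00805, limma) was 0.77 on its further probe. Hoxd9, which acts with its paralogues in the upper limb, read -0.43, -0.35 and -0.40 in control and 0.48, 0.37 and 0.36 in GGCT arrays. It had the narrowest spread of the HOXD genes in both groups, with a difference of 0.79 ± 0.08 (adjusted p = 0.00104, limma).

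The next genes on the 5′ side, Hoxd10 to Hoxd13, and Hoxd1 at the 3′ end, were above background on no array of either group. The annotated span of Hoxd3 holds Hoxd4 in RefSeq, and those of Hoxa3 and Hoxb3 hold Hoxa4 and Hoxb4 on the same strand. The annotated start of Hoxa3 also lies 5′ of those of Hoxa5 and Hoxa6, so its span reaches across these genes too. Which of the overlapping transcripts a probe reads was not tested.

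HOXA rose from Hoxa2 to Hoxa7 and not at Hoxa9. The 6 called genes had differences from 0.40 to 0.96, and the median over the 7 tested was 0.67. Hoxa2, which patterns the second branchial arch and the hindbrain, read 0.20, -0.11 and 0.10 in control and 0.72, 0.75 and 0.59 in GGCT arrays. The difference was 0.62 ± 0.11 (adjusted p = 0.00731, limma), without overlap between the groups.

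Hoxa3, needed for the thymus and parathyroid, read 2.32, 2.04 and 2.09 in control and 2.58, 2.56 and 2.51 in GGCT arrays. Its difference of 0.40 ± 0.10 (adjusted p = 0.0260, limma) was the smallest of the called genes that rose, and its further probe differed by 0.22 with an adjusted p of 0.179 (limma). The call was lost in 9 alternatives, including each one that left out 1 array other than control replicate 1. Hoxa4, a gene of the neck region, read -2.65, -2.45 and -2.47 in control and -1.63, -1.50 and -1.57 in GGCT arrays. The groups were separated by several times their spread, with a difference of 0.96 ± 0.09 (adjusted p = 0.000884, limma), which was 0.57 after the other background correction described below.

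Hoxa5, which acts in the lung and the upper trunk, read 0.49, 0.30 and 0.28 in control and 1.15, 1.05 and 0.88 in GGCT arrays, a difference of 0.67 ± 0.11 (adjusted p = 0.00576, limma). Hoxa6, its neighbour, read -2.30, -2.62 and -2.40 in control and -1.41, -2.04 and -1.63 in GGCT arrays. The spread of Hoxa6 was wider than that of Hoxa5 in the GGCT group, at an SD of 0.32 against 0.14, but the groups did not overlap. Its difference was 0.75 ± 0.18 (adjusted p = 0.0227, limma), and the call was lost in 6 alternatives, including those without control replicate 2, control replicate 3 or GGCT replicate 3.

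Hoxa7, a gene of the trunk, read 4.16, 3.85 and 3.98 in control and 4.76, 4.70 and 4.58 in GGCT arrays. The difference was 0.69 ± 0.11 (adjusted p = 0.00518, limma) and did not depend on the background correction, which gave 0.68. Hoxa9, known for its role in blood progenitors and leukaemia, read -3.30, -3.70 and -3.97 in control and -3.25, -4.12 and -3.96 in GGCT arrays. Those groups overlap fully, and the difference of -0.12 ± 0.27 (adjusted p = 0.777, limma) was within the spread.

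**Figure D2:**
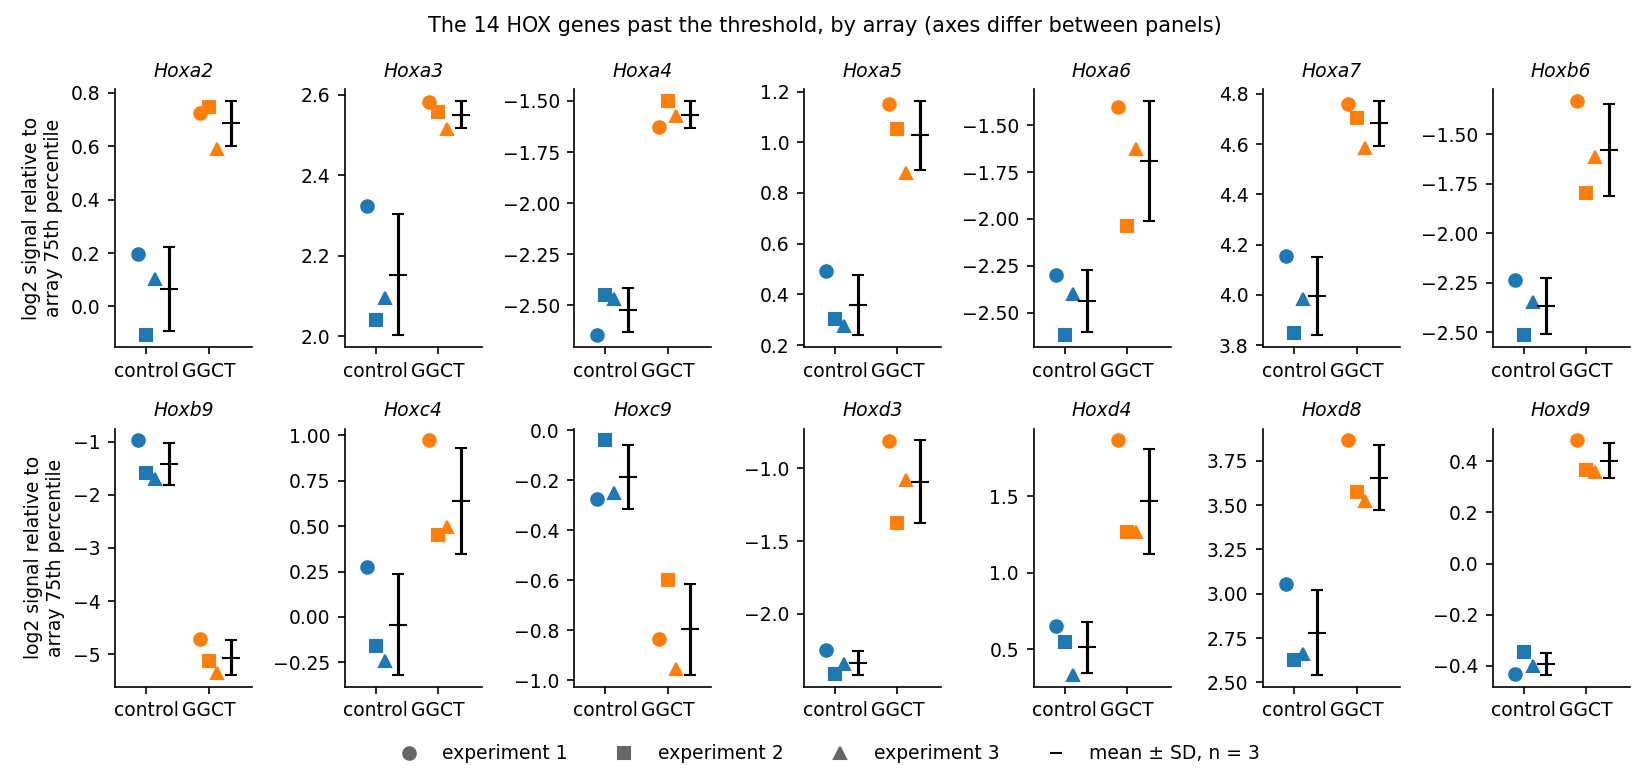
Level of each of the 14 called HOX genes on each array (log2 signal relative to the 75th percentile of the array), with control arrays in blue, GGCT arrays in orange, the marker shape giving the experiment number and bars giving mean ± SD, n = 3. In each panel the 3 GGCT values lie on one side of the 3 control values, below them for Hoxb9 and Hoxc9 and above them for the other 12 genes.

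HOXB held the largest difference among the 21 tested genes. Hoxb9, which patterns the chest region, fell from -0.98, -1.59 and -1.70 in control to -4.70, -5.13 and -5.35 in GGCT arrays. All 3 control arrays measured it well above background, but only 1 GGCT array did, that of experiment 1. The difference was -3.64 ± 0.25 (adjusted p = 0.000264, limma), or 12.4-fold higher in control, and within slides it was -3.73 and -3.59. After the other background correction it was -1.50, and on 2 of the 3 GGCT arrays the size rests on signals that were not well above background. The further Hoxb9 probe was above background on control array 1 and on no other array.

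Hoxb6, a gene of the trunk, was the 1 called HOXB gene that rose. It read -2.24, -2.51 and -2.35 in control and -1.33, -1.80 and -1.61 in GGCT arrays, with no overlap and a difference of 0.79 ± 0.15 (adjusted p = 0.00875, limma). Hoxb3, a hindbrain gene, read -2.54, -2.01 and -2.04 in control and -1.84, -1.69 and -1.46 in GGCT arrays. On this probe the groups did not overlap. The difference of 0.53 had an adjusted p of 0.0642 without and 0.0133 with the replicate block (limma). The further Hoxb3 probe also differed by 0.53, but its groups overlapped and its adjusted p was 0.216 (limma). Hoxb4, used to expand blood stem cells, differed by 0.32 ± 0.22 (adjusted p = 0.321, limma), and Hoxb5, which acts in the gut's nerve cells, by 0.23 ± 0.16 (adjusted p = 0.315, limma). In both of them control and GGCT levels overlapped. Between Hoxb6 and Hoxb9, Hoxb7 and Hoxb8 were above background on no array, and neither was Hoxb13.

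HOXC rose at its 3′ end and fell at Hoxc9, the last detected gene before its 5′ part, and the 3 tested genes between were not called. Hoxc4, the most 3′ gene of the cluster, read 0.27, -0.16 and -0.24 in control and 0.97, 0.45 and 0.49 in GGCT arrays. In each group the slide 1 array was the highest, and the difference was 0.68 ± 0.20 (adjusted p = 0.0422, limma). The call was lost in 8 alternatives, including each one that left out 1 array other than control replicate 1, and with the replicate block the adjusted p was 0.00236 (limma).

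Hoxc9, a gene of the chest and lumbar region, read -0.27, -0.04 and -0.25 in control and fell to -0.84, -0.60 and -0.96 in GGCT arrays, without overlap. The difference was -0.61 ± 0.13 (adjusted p = 0.0130, limma). Between them, Hoxc5, Hoxc6 and Hoxc8, all genes of the neck and chest region, differed by 0.20 ± 0.11, 0.15 ± 0.16 and 0.21 ± 0.15, and their adjusted p-values were 0.217, 0.499 and 0.329 (limma). The control and GGCT levels of all 3 overlapped. With the replicate block, Hoxc5 and Hoxc8 were called higher, at adjusted p-values of 0.0399 and 0.0356 (limma). After the other background correction, without the block, both differed by 0.04, at adjusted p-values of 0.724 and 0.784 (limma).

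Read along the clusters, the 17 tested genes of paralogues 2 to 8 all had positive differences, from 0.15 to 1.24, and 11 of them rose. That span ends where negative differences begin, so its edge follows the values and the count is a description only. Among the 20 tested genes of paralogues 3 to 9, 17 had positive differences, 11 rose and 2 fell. Over all genes tested, 51.5% of the differences were positive and 17.5% were called higher. At paralogue 9 the clusters parted. The difference was -0.12 for Hoxa9, -3.64 for Hoxb9, -0.61 for Hoxc9 and 0.79 for Hoxd9. Hoxb9 and Hoxc9 fell, Hoxd9 rose and Hoxa9 was not called. The difference between these 4 genes was not tested. Beyond them, at paralogues 10 to 13, no gene could be tested in any cluster.

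**Figure D3:**
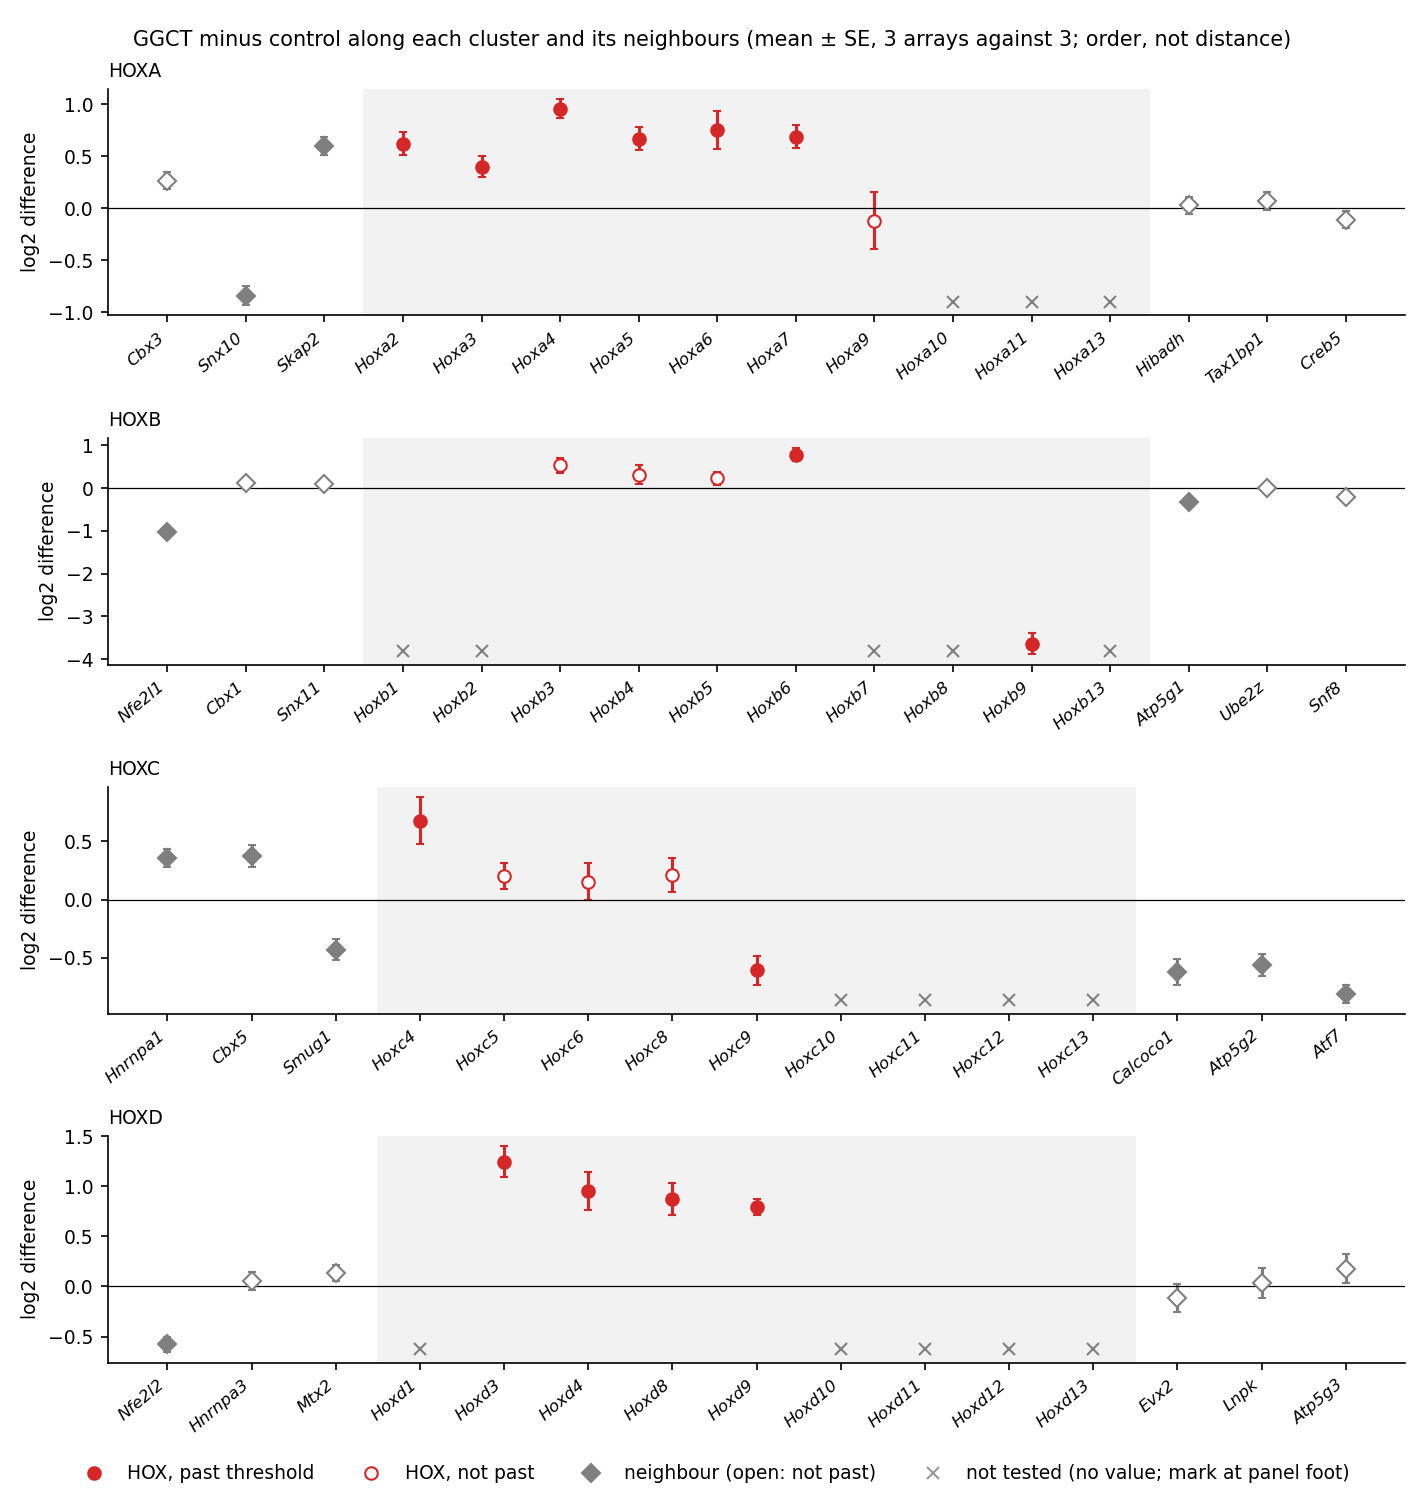
Log2 difference, GGCT minus control (mean ± SE, 3 arrays against 3), in gene order along each cluster (shaded) and for the 3 nearest tested protein-coding genes on each side, with filled symbols past the threshold and crosses at the panel foot for HOX genes that were not tested. In HOXD the 4 tested genes lie between 0.79 and 1.24 and 5 of the 6 neighbours near 0, while in HOXC all 6 neighbours were called.

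The genes flanking the clusters did not share one direction. Of the 24 neighbours, 3 for each side of each cluster, 3 rose, 8 fell and 13 were not called, beside the 17.5% of all tested genes called higher and the 17.3% called lower. Next to HOXD, the homeobox gene Evx2 (-0.12), the endoplasmic reticulum protein gene Lnpk (0.03) and the ATP synthase gene Atp5g3 (0.18) on the 5′ side were not called. On its 3′ side Mtx2 (0.14) and Hnrnpa3 (0.05) were not called either, and Nfe2l2, a regulator of antioxidant genes, fell by 0.58 on the log2 scale (adjusted p = 0.00275, limma).

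At the 3′ end of HOXA, the adaptor gene Skap2 rose by 0.60 ± 0.09 (adjusted p = 0.00404, limma), Snx10 fell with a difference of -0.84 ± 0.09 (adjusted p = 0.00138, limma), and Cbx3 differed by 0.27 (adjusted p = 0.0544 without and 0.0451 with the replicate block, limma). Beyond its 5′ end Hibadh (0.03), Tax1bp1 (0.07) and Creb5 (-0.11) were not called. Around HOXB, Atp5g1 (-0.32) and Nfe2l1 (-1.03) fell, and Ube2z, Snf8, Snx11 and Cbx1, between -0.20 and 0.11, were not called. With the replicate block Snf8 was called lower (adjusted p = 0.0455, limma). Around HOXC, Calcoco1 (-0.62), Atp5g2 (-0.56), Atf7 (-0.81) and Smug1 (-0.43) fell, and the heterochromatin protein gene Cbx5 (0.38) and the splicing factor gene Hnrnpa1 (0.36) rose. The call on Atp5g1 was lost in 10 alternatives and the call on Hnrnpa1 in 9, each including the alternatives without control replicate 1, 2 or 3 and without GGCT replicate 3. The call on Atp5g1 was also lost without GGCT replicate 1. That on Cbx5 was lost without control replicate 2 or 3 and without GGCT replicate 1 or 2, and that on Smug1 without control or GGCT replicate 3. The further probe of Hnrnpa1 differed by -0.24.

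HOX proteins gain DNA specificity by pairing with TALE homeodomain proteins, the PBX, MEIS and PKNOX families. The counts for this and the next lists stand beside the 17.5% of all tested genes called higher, the 17.3% called lower and their median difference of 0.015. Of the 8 TALE genes analysed here, 7 were tested, and 2 rose and 1 fell, with a median difference of 0.07. Pbx3 rose by 1.14 ± 0.10 (adjusted p = 0.000624, limma) and Pbx2 by 0.69 ± 0.13 (adjusted p = 0.0106, limma). Meis3 fell by 0.28 on the log2 scale (adjusted p = 0.0283, limma), a call that was lost in 10 alternatives, including each one that left out 1 array. Pknox1 differed by 0.14 ± 0.10 (adjusted p = 0.312, limma).

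Of 9 genes that act upstream of the clusters, 5 were tested, and 1 rose and 2 fell. Cyp26b1, which breaks down retinoic acid, had levels of 2.24 ± 0.24 in control and -0.02 ± 0.21 (SD, n = 3) in GGCT arrays. Its fall of -2.27 ± 0.16 (adjusted p = 0.000320, limma) kept its call in all 20 alternatives. The retinoic acid receptor gene Rarb was well above background on 3 control arrays and on none of the GGCT arrays, and was at least 2.81-fold lower (adjusted p = 0.0101, limma). That bound holds for the processed signal: the difference was -0.55 after the other background correction. It was -0.81 when all probes of the gene were averaged, and then not called. Rarg, another such receptor, differed by -0.19 (adjusted p = 0.163 without and 0.0467 with the replicate block, limma). Gdf11, a secreted factor that sets the trunk-to-tail transition, rose by 1.14 ± 0.17 (adjusted p = 0.00377, limma), or by 0.39 after the other background correction. Cdx2, Cdx4 and Cyp26a1 were above background on no array.

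Several Polycomb genes rose. Of 19 genes 18 were tested, 7 rose and none fell, with a median difference of 0.22. Ezh2, the enzyme that methylates histone H3 at lysine 27, rose by 0.76 ± 0.12 (adjusted p = 0.00529, limma). Phc1 rose by 0.45 ± 0.09 (adjusted p = 0.0131, limma), Mtf2, a partner of EZH2, by 0.44 ± 0.08 (adjusted p = 0.00837, limma), and Rnf2, which ubiquitinates histone H2A, by 0.39 ± 0.09 (adjusted p = 0.0181, limma). The other 3 that rose were Suz12, Bmi1 and Cbx2. With the replicate block, 9 rose and none fell, beside 27.3% higher and 26% lower over all tested genes in that fit. Eed and Pcgf2 were those added, at adjusted p-values of 0.0342 and 0.0424 (limma). Phc1 was not called without replicate 3 of either group, nor Rnf2 without control replicate 2 or 3.

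Of 12 genes for Trithorax proteins and the demethylases that remove the Polycomb mark, all were tested, 2 rose and 1 fell, with a median difference of 0.11. Kmt2b, a histone H3 lysine 4 methyltransferase, rose by 0.63 ± 0.11 (adjusted p = 0.00753, limma), and Dpy30, a subunit of the same complexes, by 0.58 ± 0.15 (adjusted p = 0.0292, limma). The call on Dpy30 was lost without control replicate 2 or 3 and without GGCT replicate 1 or 2. The demethylase gene Kdm6a differed by -0.37 ± 0.10 (adjusted p = 0.0366, limma), a call that was lost in 11 alternatives, including each one that left out 1 array other than GGCT replicate 3. Wdr5 differed by 0.34 ± 0.13 (adjusted p = 0.0856 without and 0.0107 with the replicate block, limma). With the block, 5 genes of this list rose and 2 fell, beside 27.3% higher and 26% lower over all tested genes. Those added were Wdr5, Men1 and Rbbp5, which were higher, and Kdm6b, which was lower.

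Of the 11 noncoding RNAs of the clusters, 7 had a named probe and 6 were tested, of which 2 rose and none fell. With the replicate block Hoxb5os was called lower, with a difference of -0.22 and an adjusted p of 0.0319 (0.545 without the block, limma). Hoxb3os, which is read opposite to Hoxb3, was above background on none of the control arrays and on all 3 GGCT arrays, and was at least 2.63-fold higher (adjusted p = 0.00107, limma). The bound for Hoxb3os holds for the processed signal. After the other background correction its difference was 0.33, with an adjusted p of 0.0570 (limma). Hoxd3os1, antisense to Hoxd3, rose by 0.36 ± 0.09 (adjusted p = 0.0255, limma), a call lost in 9 alternatives, including each one that left out 1 array other than GGCT replicate 2. Hoxaas3 (-0.14) and Haglr (-0.21), which lies in HOXD beside Hoxd1, were not called.

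**Figure D4:**
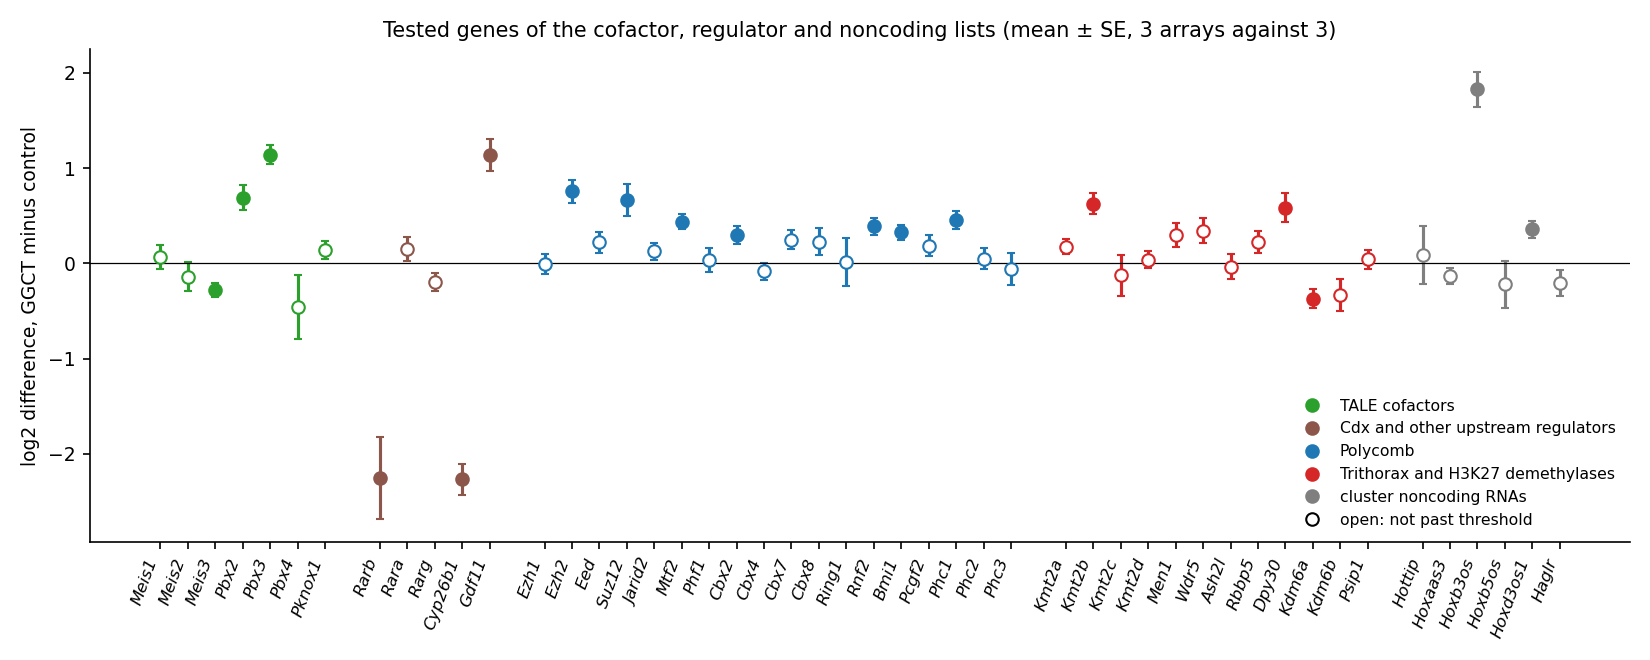
Log2 difference, GGCT minus control (mean ± SE, 3 arrays against 3), of the tested cofactor, upstream, Polycomb, Trithorax and noncoding genes, with filled symbols past the threshold. Pbx3 and Gdf11 stand near 1.14, Cyp26b1 and Rarb near -2.3, and the 7 called Polycomb genes all lie above 0. The points of Rarb and Hoxb3os are fitted values of genes that were below background in one group.

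The size of the difference in dim genes depended on the background correction. Normexp, a model-based correction here run on median spot signals with an offset of 50, pulls dim signals together by construction. Under it, Hoxd3 differed by 0.79 and not 1.24, Hoxa6 by 0.45 and not 0.75, and Hoxb6 by 0.45 and not 0.79. The bright genes moved less, such as Hoxd8 (0.85 against 0.87) and Hoxa7 (0.68 against 0.69). Hoxb4 and Hoxb5 were at 0.05 and 0.07 under normexp, and Hoxc5 and Hoxc8 were both at 0.04. Normexp left 11 genes called higher and 2 called lower, and Hoxa6 was the called gene that was lost.

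**Figure D5:**
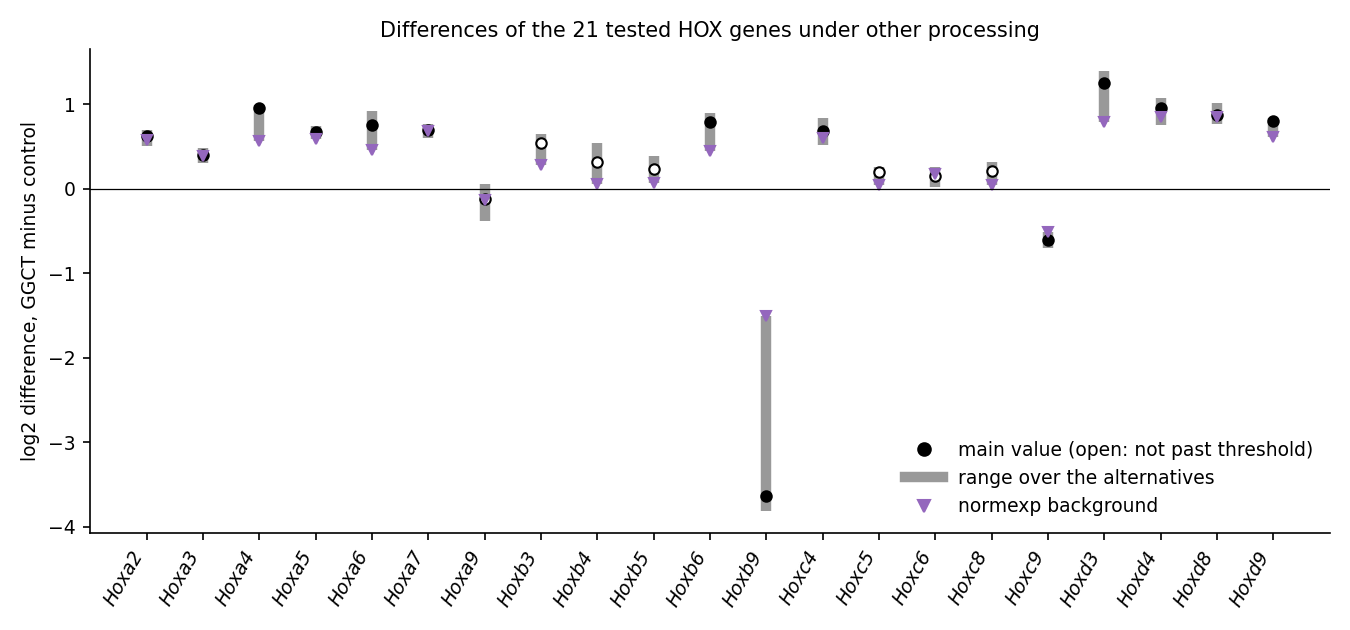
Log2 difference, GGCT minus control, of the 21 tested HOX genes, with points giving the reported value (open where not past the threshold), grey bars the range over the alternatives and triangles the value after normexp background correction. Hoxb9 ranges from -3.81 to -1.50, and Hoxa9 is the 1 gene whose range crosses 0.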

How the data were processed

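Cy3-labelled cRNA from total RNA of 6 cultures was hybridised to 1-colour arrays, per the labels. The scanner files hold spot intensities; per the file headers, the authors used Feature Extraction 12.1.0.3 of Agilent, and background subtraction and detrending are part of the processed intensity. The deposited log2 table correlated at 1 with the log2 processed intensity of the same array (column medians -3.87 to -3.69, centring constant unstated). Control spots (3671 of 62976) and outlier spots (64 to 126 per array) were left out, and spots of 1 probe were averaged. Probes were named by matching accessions to RefSeq (GRCm38.p6), which named 34546 of 56570 (61.1%). The array's grid names another build, so no array coordinates are given, and promoter coordinates are those of RefSeq.

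From each log2 intensity the 75th percentile of its array was subtracted. The brightest probe stood for a gene, and testing required it to be well above background on the 3 arrays of either group. Groups were compared with limma 3.58.1 (R 4.3.3, lmFit and eBayes, 2-sided, Benjamini-Hochberg over all 23851 tested, threshold 0.05) without a block, and the fit was checked on simulated data. A gene above background on no array of 1 group is given as "at least N-fold": the bright group's mean against, per array, the higher of the dim value and the lowest value well above background. Precision is limited by the number of arrays. Arrays of the same number deviated together from the means of their groups (correlations 0.731, 0.453 and 0.358). They also shared a slide, and arrays of different numbers were not correlated, so pairing and slide cannot be told apart here. The titles' numbers were used as the block in an alternative fit, and the block result is given where it changes a call.

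The named genes are every HOX gene analysed, up to 4 genes per list with the smallest p, and the 3 nearest tested neighbours on each side. Other called list genes and markers, and genes whose call the block changed, were named after their values were seen. The members and lists were chosen with earlier results of these data known. Of 39 symbols that the naming rule takes, 1 is not analysed here, and neither is 1 gene of the cofactor list. Tried alternatives were other normalizations, background, filters, probe summaries, blocks, variance models, the deposited log2 values and leaving out arrays.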

Additional observations from a re-analysis of the deposited data

How the results depend on the processing

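Over 20 alternatives, the 21 HOX genes gave 419 differences, of which 370 kept direction and side of the threshold, 39 lost the call, 7 gained it and 3 changed sign. The counts stayed at 12 higher and 2 lower under quantile normalization, under a median shift of each array and on the deposited values. The deposited values correlated at 1 with the log2 processed intensity of the same array, so their result is not a separate check. Hoxa4 kept its call in all 20 and Hoxb9 in the 19 that tested it. The count of genes called higher ranged from 1 to 13 when a replicate number was left out and from 9 to 12 when 1 array was, and the count called lower from 1 to 2 and at 2. Without replicates of number 2 in both groups the count higher was 4, and without number 3 it was 1 with 1 lower. Each leaves 2 arrays against 2, and the share of all genes called in the leave-out fits is not given. Without a filter on dim probes 9 genes were called higher (Hoxa3, Hoxa6 and Hoxc4 were lost) and 1 lower (Hoxc9 was lost), and with a filter over all 6 arrays 1, since Hoxb9 was not tested. Blocking on the replicate number, 15 genes rose and 2 fell, beside 27.3% higher and 26% lower over all tested genes. Hoxb3, Hoxc5 and Hoxc8 were gained, as with the slide as a block.

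Values that changed sign belonged to genes without a call, except Hnrnpa1, whose further probe gave -0.24; the cause was not tested. Creb5 was 0.018 under quantile normalization, and Ube2z 0.025 there and 0.022 under normexp. Evx2 was 0.12 with the mean of its probes and 0.36 on its further probe. Leaving out 1 array or 1 replicate number, values ranged from -0.38 to 0.056 for Hoxa9, -0.014 to 0.053 for Hibadh, -0.033 to 0.043 for Ube2z, -0.11 to 0.11 for Lnpk and -0.028 to 0.12 for Hnrnpa3. Differences of dim genes are limited by signal over background.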
